A study of Homo sapiens with 15 samples.

Results

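The comparison described here is the interaction of insulin and PIK3CA H1047R in 12Z cells, that is, the insulin effect with H1047R minus the insulin effect with the empty pBabe vector. 12Z is an established immortalised line of human endometriotic epithelial cells. The 4 groups that make up this 2 by 2 design were taken from the sample labels and hold 12 of the 15 libraries of the series, with 3 libraries in each group. They are cells with H1047R and insulin, with H1047R and vehicle, with pBabe and insulin, and with pBabe and vehicle. All 12 libraries came from cells that first received a pool of siRNAs against RSAD2, so nothing below describes cells with RSAD2 intact, and the 3 libraries with a non-targeting siRNA had no insulin arm and were left out. The plasmid, empty or carrying the kinase mutant, was transfected transiently 24 h after the siRNA. Serum was later withdrawn for 4 h, after which cells stayed for 24 h with 100 nM insulin or with vehicle alone. A transient transfection reaches only part of the cells, and fewer responding cells and a smaller response per cell cannot be told apart in bulk RNA.

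Insulin binds a receptor tyrosine kinase that recruits the IRS adaptor proteins, which in turn activate phosphatidylinositol 3-kinase (PI3K). PI3K makes the lipid signal that activates AKT, and AKT acts on mTOR and keeps FOXO transcription factors out of the nucleus. PIK3CA encodes the p110 alpha catalytic subunit of PI3K, and H1047R is a frequent tumour substitution that raises its activity without a ligand. An interaction opposite in sign to the insulin effect means a smaller (dampened) response with H1047R, an interaction near 0 means responses of like size, and an interaction of the same sign means a larger response with H1047R.

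Gene counts totalled 16.1 to 39.7 M per library. Levels are given as CPM, the count per M of the TMM-scaled library size, and effects are log2 fold changes with standard errors (SE) from 1 edgeR fit over the 12 libraries, in which 23450 genes were tested. RSAD2, the targeted gene, had 2 to 56 counts in the 12 RSAD2 siRNA libraries, against 84 to 88 counts in the 3 libraries with the non-targeting siRNA. Per M gene counts, without TMM scaling, the latter had 2.88 to 3.54. The remaining level differed by vector. With insulin it was 0.816 to 0.921 in H1047R cells and 0.129 to 0.452 in pBabe cells. With vehicle it was 0.636 to 1.41 in H1047R cells and 0.076 to 0.684 in pBabe cells. The part of this difference in the interaction was not tested. PIK3CA had 165, 162 and 166 CPM in H1047R insulin cells, 215, 201 and 226 CPM in H1047R vehicle cells, 80.6, 81.7 and 77.2 CPM in pBabe insulin cells and 93.6, 85.5 and 91.6 CPM in pBabe vehicle cells. It was therefore higher in every H1047R library than in every pBabe library, and plasmid and endogenous reads are counted together. The keratins KRT8, KRT18 and KRT19 were abundant (418 to 973 CPM over the 12 libraries), whereas the epithelial markers EPCAM (0 to 0.617 CPM) and CDH1 (0.272 to 0.938 CPM) were close to absent and the mesenchymal filament gene VIM had 1494 to 2116 CPM. Of the defining endothelial and immune markers, PECAM1 (0 to 0.586 CPM) and CDH5 (0.215 to 1.02 CPM) were near 0, VWF had 1.37 to 4.16 CPM and CD14 had 2.84 to 4.99 CPM, and PTPRC was raised in 1 library described below.

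Some libraries stood apart. The library labelled pBabe vehicle replicate 3 had 507 genes more than 3-fold above each of the other 11 libraries, of which 446 are annotated as pseudogenes. It also held 9.13 CPM of the leukocyte gene PTPRC, against 0.481 to 1.37 CPM in the rest. Of these 507 genes, 111 had an unadjusted interaction p under 0.05 and 1 was called for the average insulin effect. The pBabe insulin libraries varied most among themselves, with a median within-group SD of 0.0944 on the log2 scale, against 0.0601 for H1047R insulin, 0.055 for H1047R vehicle and 0.0597 for pBabe vehicle. Replicate 2 was the one that differed most from its group. The share of reads on the opposite strand was 6.11% to 6.5% in the 6 H1047R libraries and 6.17% in pBabe insulin replicate 3, but 5.77% to 5.9% in the other 5 pBabe libraries, so that this library property and the vector largely cannot be told apart. The part of these properties in the results was not tested, and counts over all genes and the list medians discussed are given below without single libraries where these moved them by over 1.5 times, other than medians near 0.

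No gene had an interaction past the threshold of an adjusted p under 0.05 in edgeR, so percent called was 0% in both directions and the smallest adjusted p was 0.763. DESeq2 also called 0 genes. At an unadjusted p under 0.05, 1520 genes (6.48% of those tested) had an interaction in edgeR, 838 of them above 0 (3.57%) and 682 below 0 (2.91%), and DESeq2 gave 1029. Without pBabe insulin replicate 1 the edgeR number was 2314. By contrast, the insulin effect averaged over both vectors was called for 1771 genes (7.55%), with 601 rises (2.56%) and 1170 falls (4.99%), and the rises numbered 398 without H1047R vehicle replicate 1. Counts of list members given below are to be read against these shares of all genes. Taken separately, 502 genes passed with H1047R (2.14%) and 1269 with pBabe (5.41%). These counts rested on single libraries. The count with H1047R was 311 without H1047R vehicle replicate 1, 333 without H1047R vehicle replicate 3, 314 without H1047R insulin replicate 3 and 780 without pBabe insulin replicate 2, and that with pBabe was 819 without pBabe vehicle replicate 3. A difference between these numbers is not in itself a difference in response, since the interaction, which tests it gene by gene, was called nowhere. The precision sets what could have been seen. For the 13580 genes with a mean of at least 1 CPM the 95% interval of the interaction reached a median of 0.23 to either side, and the median size of the average effect of a called gene was itself only 0.23.

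Over the 1771 genes called for the average, the interaction was opposite in sign to the insulin effect, meaning a smaller response with H1047R, in 1258 (71.0%). The same count over all genes tested gave 59.0%, and 71.0% is to be read against that figure. Among the called genes, 189 (10.7%) had a smaller response with H1047R at an unadjusted p under 0.05 and 24 (1.36%) had a larger one, against 4.74% and 1.74% of all genes tested. The 189 became 478 without pBabe insulin replicate 1, 119 and 110 without H1047R vehicle replicates 1 and 2, and 117 and 89 without H1047R insulin replicates 1 and 3. Each of these leaves out 1 library. The 24 became 14 and 8 without pBabe vehicle replicates 2 and 3, 12 and 15 without H1047R vehicle replicates 1 and 3, and 11 without either H1047R insulin replicate 1 or 3. In each of the 23 alternatives smaller responses outnumbered larger ones. The median insulin effect in the direction of the call was 0.20 with H1047R and 0.27 with pBabe, and the median share of the pBabe effect that was kept with H1047R was 78.9%. The median interaction, signed so that negative means smaller with H1047R, was -0.06 (quartiles -0.15 and 0.01). It was -0.11 without pBabe insulin replicate 1, where the kept share was 67.1%. Rises kept a median of 75.3% and falls 80.8%, and in only 2 of the 1771 genes did the 2 effects have opposite signs.

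**Figure D1:**
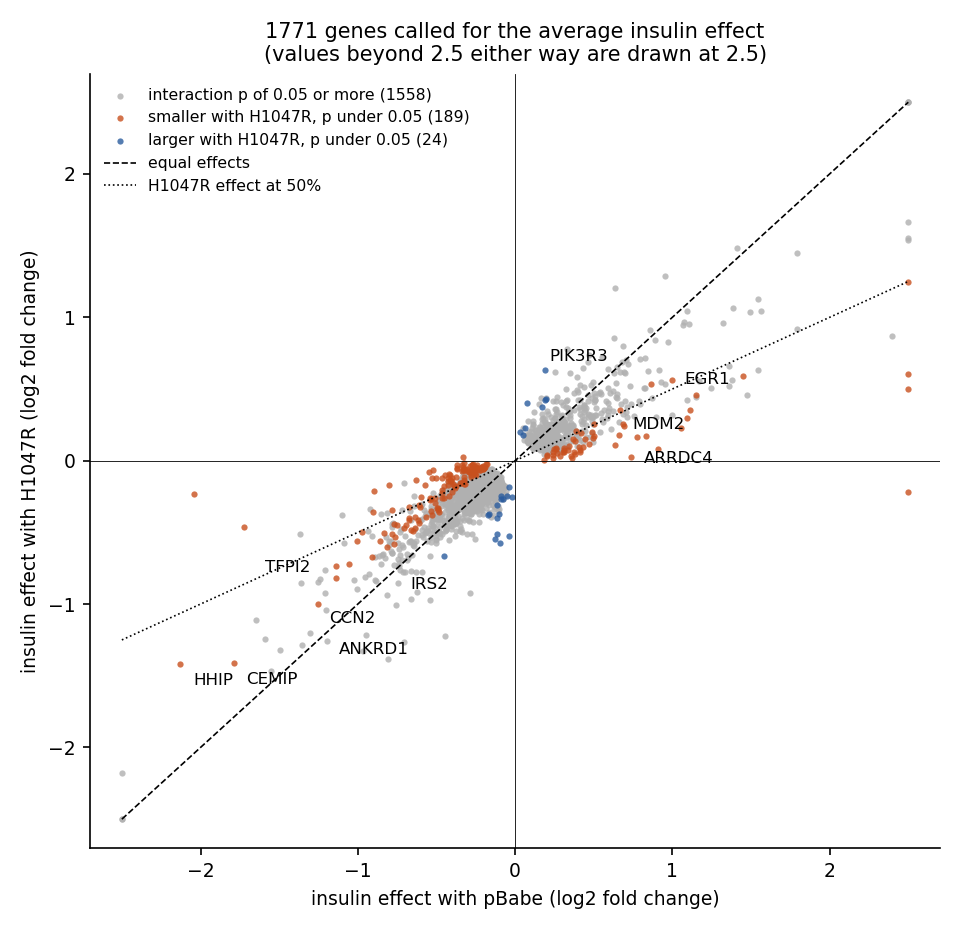
Insulin effect with H1047R (vertical axis) against the insulin effect with pBabe (horizontal axis), both as log2 fold changes, for the 1771 genes called for the average effect. Points between the dashed line of equal effects and the horizontal axis have a smaller response with H1047R. The 189 orange genes lie there with an unadjusted interaction p under 0.05, and the 24 blue genes lie beyond the dashed line.

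How the genes were chosen moved this share. Of the 502 genes called with H1047R, 53.6% had a smaller response with H1047R and the median kept share was 96.5%. Of the 1269 called with pBabe, 90.4% had a smaller response and the median was 57.0%. Choosing by the effect in 1 vector favours genes whose estimate in that vector is high, so neither figure stands for the response as a whole. Choosing by the average is free of this only where both effects are equally precise. The pBabe insulin libraries spread the most (median SD 0.0944), so the average can also favour genes with a high pBabe estimate. The part of this in the 71.0% smaller, the 189 against 24 genes and the 78.9% kept was not tested. The 388 genes called with both vectors, all of them in the same direction, kept a median of 88.0%, with 269 smaller and 119 larger with H1047R.

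Promoter windows of 5 members of the gene lists are shown here as the sequence context of the responses that follow. Each window runs from 250 bases before to 50 bases after an annotated start, in RefSeq on GRCh38.p14, and is written 5' to 3' on the strand of the gene. Capitals mark matches, on either strand, to a motif named for each gene. Where a gene had several windows, the window with the most matches is shown. MDM2 (chr12:68808767-68809066, plus strand, 1 of 4 windows in the table) is shown because it had the smallest interaction p among p53 targets, with a match to the p53 response element with at most 2 mismatches. EGR1 (chr5:138465229-138465528, plus strand) is shown for its 2 CArG boxes, the element bound by serum response factor. ARRDC4 (chr15:97960453-97960752, plus strand) and TXNIP (chr1:145996530-145996829, minus strand, 1 of 2 windows in the table) are shown for CACGNG, the core that the glucose-sensing factors MondoA and ChREBP bind in pairs. CCN2 (chr6:131951323-131951622, minus strand) is shown as a gene with a largely kept response, for GGAATG, the core read by TEAD factors. In ARRDC4, 2 of the 3 matches overlap and are printed as a single run. The CACGNG marks are single cores, and whether copies are spaced as a pair was not examined.
MDM2: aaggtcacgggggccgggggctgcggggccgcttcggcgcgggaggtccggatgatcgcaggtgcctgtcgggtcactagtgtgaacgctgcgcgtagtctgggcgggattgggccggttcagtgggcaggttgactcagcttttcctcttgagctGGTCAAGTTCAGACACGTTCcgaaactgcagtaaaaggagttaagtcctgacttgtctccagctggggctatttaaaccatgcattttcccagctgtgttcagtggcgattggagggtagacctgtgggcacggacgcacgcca
EGR1: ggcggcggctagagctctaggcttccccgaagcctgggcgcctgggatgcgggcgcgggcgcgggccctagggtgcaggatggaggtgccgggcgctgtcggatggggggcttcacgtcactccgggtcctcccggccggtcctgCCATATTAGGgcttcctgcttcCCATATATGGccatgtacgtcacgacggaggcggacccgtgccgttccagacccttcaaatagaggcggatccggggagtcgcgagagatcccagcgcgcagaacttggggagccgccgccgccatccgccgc
ARRDC4: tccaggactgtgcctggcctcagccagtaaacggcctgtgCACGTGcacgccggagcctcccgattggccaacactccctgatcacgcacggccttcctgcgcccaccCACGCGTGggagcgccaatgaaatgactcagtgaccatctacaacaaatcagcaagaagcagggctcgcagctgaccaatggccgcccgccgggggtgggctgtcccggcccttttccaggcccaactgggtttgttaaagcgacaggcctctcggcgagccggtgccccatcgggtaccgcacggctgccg
TXNIP: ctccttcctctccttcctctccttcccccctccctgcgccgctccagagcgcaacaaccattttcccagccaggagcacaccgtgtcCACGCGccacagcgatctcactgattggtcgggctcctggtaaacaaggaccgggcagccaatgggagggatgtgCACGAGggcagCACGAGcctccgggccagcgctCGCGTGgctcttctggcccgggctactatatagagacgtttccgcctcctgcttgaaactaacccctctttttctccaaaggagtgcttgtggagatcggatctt
CCN2: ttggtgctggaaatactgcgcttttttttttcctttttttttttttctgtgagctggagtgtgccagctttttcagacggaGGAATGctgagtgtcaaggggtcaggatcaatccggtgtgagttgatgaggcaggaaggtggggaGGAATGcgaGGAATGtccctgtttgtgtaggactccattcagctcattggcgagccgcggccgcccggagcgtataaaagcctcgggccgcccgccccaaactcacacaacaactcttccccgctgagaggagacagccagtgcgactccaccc

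Of all 35116 windows in the table, 0.649% held at least 1 match to the p53 response element under the same rule, 1.29% held a CArG box, 30.5% held CACGNG and 14.0% held GGAATG. Windows with as many matches as those shown were rarer, with 2 or more CArG boxes (as in EGR1) in 0.0313%, 3 or more copies of CACGNG in 1.98% and 3 or more of GGAATG in 0.128%. These shares are over single windows, whereas the MDM2 and TXNIP windows were picked among several for their matches. By gene, the p53 element was matched in 4 of the 24 p53 targets with a window (AEN, DDB2, FAS and MDM2), against 0.82% of all genes. A CArG box was matched in 3 of 27 immediate early and MAPK genes (EGR1, EGR2 and SRF), against 1.6%, and GGAATG in 13 of 21 YAP and TEAD targets, against 16.7%. A match describes these letters only and is not a measured binding site.

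Targets of the tumour suppressor p53, genes of cell cycle arrest, DNA repair and cell death, had the lowest median kept share of the lists with 8 or more called members. Insulin raised 21 of the 30 measured targets on average (70.0%, against 2.56% of all genes tested) and lowered 1, PLK2, a kinase gene. The median insulin effect of the list was 0.14 with H1047R and 0.30 with pBabe. The interaction was below 0 in 26 of 30 members (86.7%), against 49.5% of all genes tested and 73.2% of the genes called as average rises. At an unadjusted p under 0.05 it was below 0 in 8 and above 0 in none. These compare with 2.91% and 3.57% of all genes tested, and with 9.15% and 1.33% of the called rises. Without pBabe vehicle replicate 3, 5 members were below 0 at that p. Its median was -0.15, against 0.00 over all genes. Of the 22 members called for the average, 21 had the smaller response with H1047R, and the median kept share was 52.1%. Over the 1771 called genes 71.0% had the smaller response, and the median kept share was 78.9%. The median interaction of the p53 targets ran from -0.20 to -0.12 over the 22 alternatives that give one. No member passed the adjusted threshold.

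MDM2 encodes the ubiquitin ligase that marks p53 for destruction. It had 432, 473 and 456 CPM in H1047R insulin cells, 349, 370 and 346 CPM in H1047R vehicle cells, 477, 516 and 491 CPM in pBabe insulin cells and 337, 305 and 292 CPM in pBabe vehicle cells. The 3 insulin libraries lay above the 3 vehicle libraries with either vector, the insulin libraries of pBabe were all higher than those of H1047R, and its vehicle libraries were all lower. The insulin effect was 0.35 ± 0.05 with H1047R and 0.67 ± 0.05 with pBabe, both past the threshold. The interaction was -0.31 ± 0.07, with a 95% interval of -0.47 to -0.16 and an edgeR unadjusted p of 0.000258.

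TP53INP1 encodes a stress protein that promotes p53-dependent cell death. Its levels were 76.5, 83.8 and 79.1 CPM in H1047R insulin cells, 73.2, 74.8 and 72.4 CPM in H1047R vehicle cells, 89.0, 97.1 and 86.7 CPM in pBabe insulin cells and 71.1, 66.8 and 59.0 CPM in pBabe vehicle cells. Insulin and vehicle libraries did not overlap with either vector, but the effect passed only with pBabe (0.47 ± 0.06, against 0.12 ± 0.06 with H1047R), and the interaction was -0.35 ± 0.09. FAS encodes a death receptor. FAS had 38.5, 37.6 and 36.0 CPM in H1047R insulin cells, 31.0, 33.4 and 33.2 CPM in H1047R vehicle cells, 42.2, 44.5 and 38.0 CPM in pBabe insulin cells and 32.1, 33.0 and 28.2 CPM in pBabe vehicle cells, with an interaction of -0.23. Its insulin libraries were above its vehicle libraries with either vector, and the insulin groups of the 2 vectors overlapped.

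Several other targets of this list had unadjusted p values under 0.05 below 0. The interaction was -0.29 for FDXR, a mitochondrial electron carrier, -0.24 for BTG2, an antiproliferative gene, and -0.22 for ZMAT3, an RNA-binding protein. It was -0.18 for RRM2B, a subunit of ribonucleotide reductase used in DNA repair, and -0.18 for TNFRSF10B, a receptor for the death ligand TRAIL. Other targets had closer effects. CDKN1A, which encodes the cell cycle inhibitor p21, rose by 0.43 ± 0.06 with H1047R and by 0.51 ± 0.06 with pBabe, an interaction of -0.08 with a 95% interval of -0.26 to 0.09. GDF15, a secreted stress hormone, had 30.9, 28.4 and 27.6 CPM in H1047R insulin cells, 20.8, 22.9 and 18.9 CPM in H1047R vehicle cells, 30.6, 26.7 and 28.2 CPM in pBabe insulin cells and 21.0, 21.9 and 19.4 CPM in pBabe vehicle cells. The vectors overlapped within each treatment and the 2 insulin effects of GDF15 were both 0.46.

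**Figure D2:**
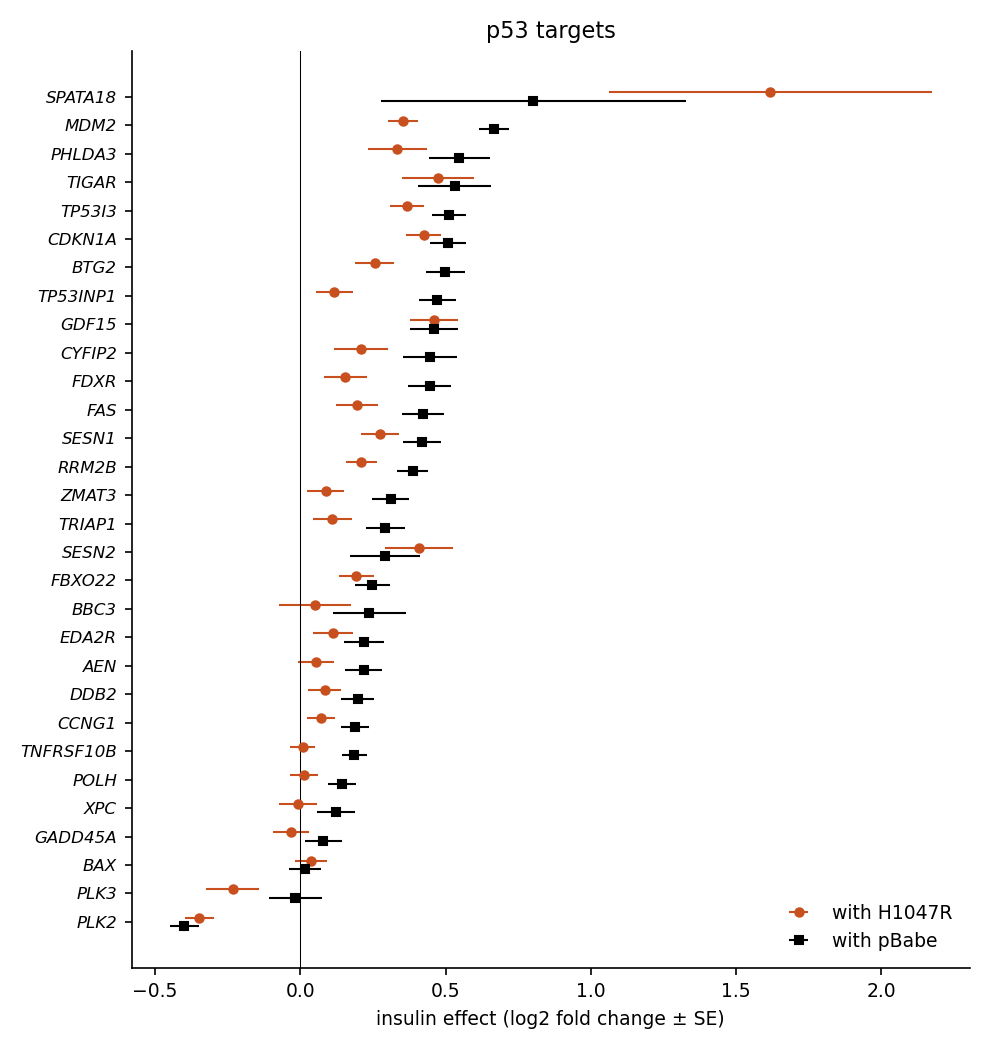
Insulin effect (horizontal axis, log2 fold change ± SE) of the 30 measured p53 targets, ordered by the effect with pBabe, with H1047R as orange circles and pBabe as black squares. The orange circle lies to the left of the black square for 26 of the 30 genes.

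The levels behind this list can be set side by side as the mean log2(CPM + 0.5) over its members, relative to pBabe vehicle cells. It was 0.257 ± 0.0162 in H1047R insulin cells, 0.0879 ± 0.0326 in H1047R vehicle cells, 0.293 ± 0.0287 in pBabe insulin cells and 0 ± 0.0211 in pBabe vehicle cells (SD, n = 3 each). The H1047R vehicle cells thus sat above the pBabe vehicle cells, while the insulin cells of both vectors lay close together. In the direction of the insulin effect, H1047R differed from pBabe over the 1771 called genes by a median of 0.04 with vehicle and -0.02 with insulin, against 0.03 and -0.01 over all genes tested. H1047R moved the vehicle level in the insulin direction in 64.9% of these genes, against 56.7% of all genes tested, and the insulin level in 40.8%, against 46.4%. These shares use the same libraries as the interaction and do not add to it.

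EGR1 is an immediate early transcription factor induced by growth factor signalling. It had 52.7, 49.2 and 50.6 CPM in H1047R insulin cells, 33.7, 35.9 and 33.6 CPM in H1047R vehicle cells, 52.9, 47.6 and 49.5 CPM in pBabe insulin cells and 27.7, 25.9 and 21.7 CPM in pBabe vehicle cells. With insulin the 2 vectors overlapped, whereas with vehicle every H1047R library was above every pBabe library. EGR1 rose by 0.56 ± 0.07 with H1047R and by 0.99 ± 0.08 with pBabe, and the interaction was -0.43 (95% interval -0.65 to -0.22, edgeR unadjusted p = 0.000403). It was 1 of only 2 of the 37 immediate early and MAPK genes that insulin raised on average, the other being KLF10, and 1 of 6 with an interaction below 0.

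Most genes of that list are feedback inhibitors or transcription factors of the RAS-MAPK pathway, and insulin lowered 17 of them on average (45.9%, against 4.99% of all genes tested). The median insulin effect was -0.10 with H1047R and -0.23 with pBabe. The interaction was above 0 in 31 of 37, with a median of 0.10. This compares with 50.5% of all genes tested and 69.9% of the genes called as average falls. At an unadjusted p under 0.05 it was above 0 in 5 and below 0 in 1. These compare with 3.57% and 2.91% of all genes tested, and with 11.5% and 1.37% of the called falls. Of the 19 members called for the average, 18 had the smaller response with H1047R, keeping a median of 68.6%. Over the 1771 called genes 71.0% had the smaller response, and the median kept share was 78.9%. The list median stayed between 0.08 and 0.12 under the alternatives.

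DUSP6, a phosphatase that inactivates ERK, had 83.3, 83.7 and 85.6 CPM in H1047R insulin cells, 116, 112 and 118 CPM in H1047R vehicle cells, 72.9, 78.0 and 73.9 CPM in pBabe insulin cells and 118, 124 and 121 CPM in pBabe vehicle cells. Insulin and vehicle libraries were well apart with either vector, and the pBabe insulin libraries were lower than all others. DUSP6 fell by 0.45 ± 0.05 on the log2 scale with H1047R and by 0.69 ± 0.05 with pBabe, and the interaction was 0.24 ± 0.07. The interaction was 0.26 for FOSL1, an AP-1 subunit, 0.30 for SPRY1, an inhibitor of receptor tyrosine kinase signalling, and 0.15 for DUSP4, another MAPK phosphatase. Other members had effects closer in size. ETV4, an ETS factor downstream of ERK, had effects of -0.57 with H1047R and -0.68 with pBabe, and the nuclear receptor NR4A2 had effects of -0.94 with H1047R and -0.82 with pBabe.

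The arrestin-domain genes ARRDC4 and TXNIP, which reduce glucose uptake and are known targets of MondoA as well as of FOXO factors, had small or negative insulin effects with H1047R and effects that passed with pBabe. ARRDC4 had 9.50, 9.07 and 8.94 CPM in H1047R insulin cells, 8.72, 8.97 and 9.32 CPM in H1047R vehicle cells, 10.9, 8.31 and 9.51 CPM in pBabe insulin cells and 6.42, 4.78 and 5.97 CPM in pBabe vehicle cells. The pBabe vehicle libraries alone were low, and the other 9 libraries overlapped. The insulin effect was 0.03 ± 0.12 with H1047R and 0.74 ± 0.12 with pBabe, and the interaction was -0.71 ± 0.17 (95% interval -1.06 to -0.36, edgeR unadjusted p = 0.000365).

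TXNIP had 132, 138 and 131 CPM in H1047R insulin cells, 132, 143 and 140 CPM in H1047R vehicle cells, 145, 142 and 134 CPM in pBabe insulin cells and 122, 120 and 120 CPM in pBabe vehicle cells. Again the pBabe vehicle libraries were the lowest, and the insulin effect of TXNIP passed with pBabe (0.22 ± 0.05) and not with H1047R (-0.05 ± 0.05), with an interaction of -0.27 (unadjusted p = 0.000553). GPCPD1, a phosphodiesterase of glycerophosphocholine metabolism, had 16.8, 17.7 and 19.1 CPM in H1047R insulin cells, 17.2, 16.6 and 15.9 CPM in H1047R vehicle cells, 17.1, 20.1 and 19.7 CPM in pBabe insulin cells and 12.4, 12.3 and 11.9 CPM in pBabe vehicle cells. Its pBabe vehicle libraries were likewise below all others, and the interaction was -0.53 ± 0.12. These genes are named for small interaction p values, so their low pBabe vehicle levels describe that choice.

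The list of FOXO-linked genes, known to be repressed when insulin activates AKT, holds ARRDC4, TXNIP and PIK3CA as well as those below. PIK3CA enters the values of this list with plasmid and endogenous reads summed. Of the 33 measured members of the list 5 rose (15.2%) and 14 fell (42.4%) on average, against 2.56% and 4.99% of all genes tested. The median effect was -0.10 with H1047R and -0.12 with pBabe. The 19 called members kept a median of 89.2%, against 78.9% over the 1771 called genes. The median interaction was -0.06, with 3 members on each side of 0 at an unadjusted p under 0.05. It was -0.02 without pBabe vehicle replicate 3, -0.04 without pBabe insulin replicate 2 and -0.09 without pBabe insulin replicate 3. IRS2, which encodes the adaptor that links the insulin receptor to PI3K, had 29.7, 26.8 and 26.5 CPM in H1047R insulin cells, 45.5, 46.3 and 48.9 CPM in H1047R vehicle cells, 28.3, 24.0 and 29.0 CPM in pBabe insulin cells and 45.6, 45.9 and 43.0 CPM in pBabe vehicle cells. The insulin libraries lay far below the vehicle libraries with either vector, and the vectors overlapped within each treatment. IRS2 fell by 0.76 ± 0.07 with H1047R and by 0.73 ± 0.07 with pBabe, and the interaction of -0.03 had a 95% interval of -0.24 to 0.18.

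PIK3R3, which encodes a regulatory subunit of PI3K, rose by 0.62 ± 0.06 with H1047R and by 0.69 ± 0.06 with pBabe (interaction -0.08, 95% interval -0.25 to 0.10). The FOXO-linked gene CCNG2, an atypical cyclin, fell by 0.43 with H1047R and by 0.38 with pBabe. CITED2, a transcriptional co-regulator, had a larger interaction. It had 128, 137 and 133 CPM in H1047R insulin cells, 152, 162 and 164 CPM in H1047R vehicle cells, 125, 119 and 126 CPM in pBabe insulin cells and 175, 182 and 169 CPM in pBabe vehicle cells. The insulin libraries of the vectors were separated by a narrow margin, and the H1047R vehicle libraries were all below those of pBabe. It fell by 0.26 ± 0.05 with H1047R and by 0.51 ± 0.05 with pBabe, so that 51.9% of the pBabe effect was kept, and the interaction was 0.24 (unadjusted p = 0.00177).

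**Figure D3:**
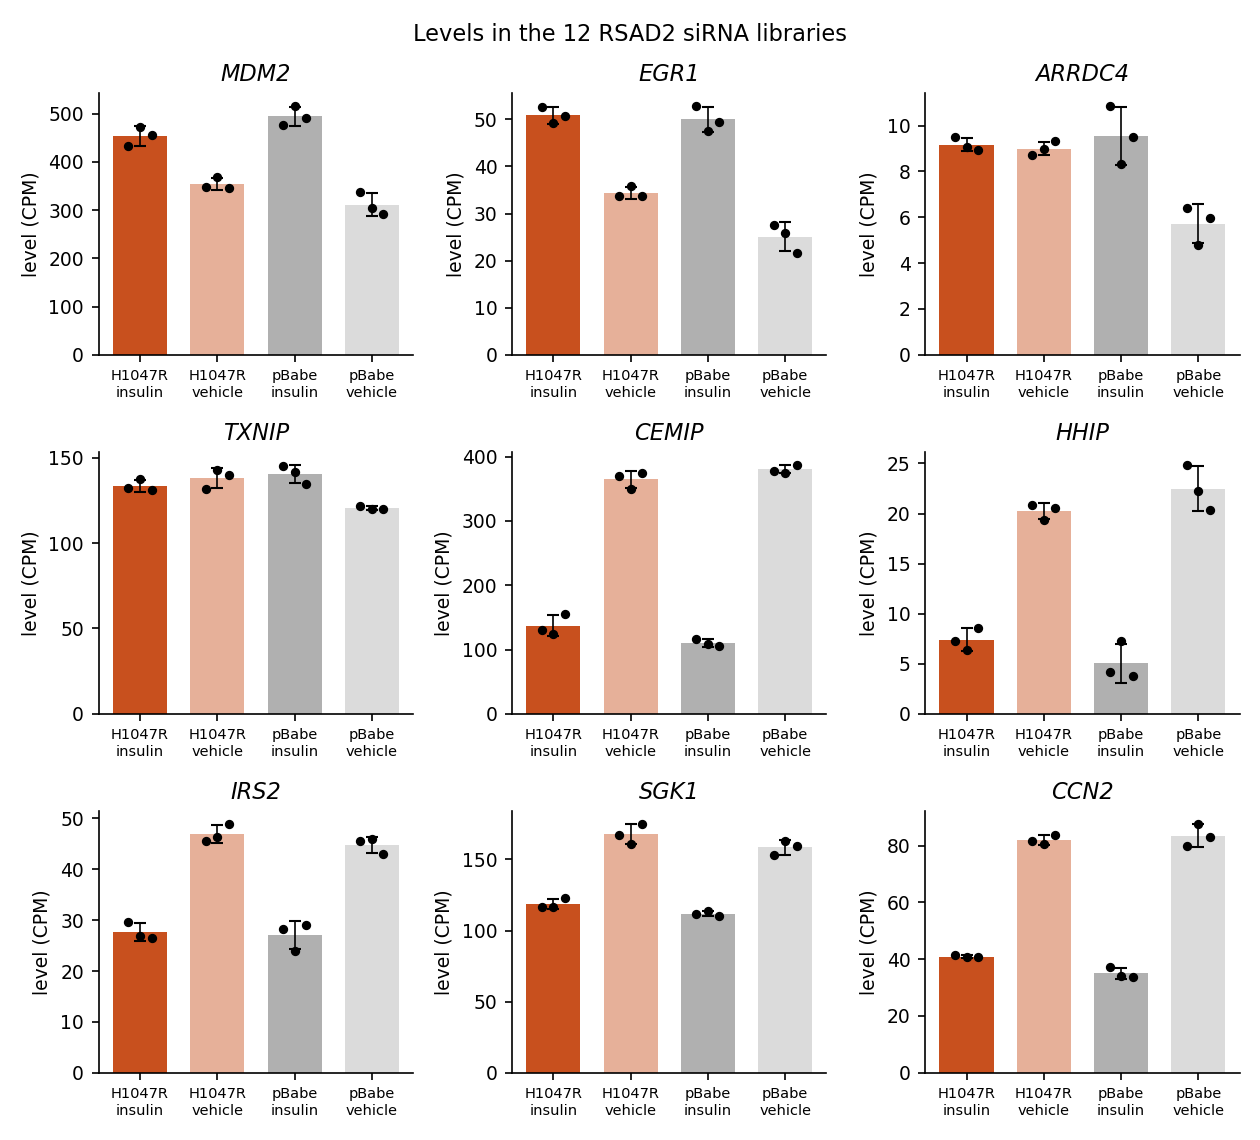
Levels (vertical axes, CPM, each starting at 0) of 9 genes in the 4 groups, with bars for the mean, error bars for the SD over 3 libraries and points for single libraries. MDM2, EGR1, ARRDC4 and TXNIP are lowest in pBabe vehicle cells, and for CEMIP, HHIP, IRS2, SGK1 and CCN2 the insulin libraries lie below the vehicle libraries with either vector.

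Among insulin and IGF receptors, adaptors and binding proteins, 8 of 22 fell on average (36.4%, against 4.99% of all genes tested) and none rose. The interaction was above 0 in 16 of 22, against 50.5% of all genes tested and 69.9% of the genes called as average falls. At an unadjusted p under 0.05 it was above 0 in 3 and below 0 in none. These compare with 3.57% and 2.91% of all genes tested, and with 11.5% and 1.37% of the called falls. The median interaction of the list was 0.06 (0.02 to 0.08 with single libraries left out). Of the 8 called members 6 had the smaller response with H1047R, and the median kept share was 60.1%. Over the 1771 called genes 71.0% had the smaller response, and the median kept share was 78.9%. The receptors themselves had close effects. INSR, the insulin receptor, fell by 0.48 ± 0.07 with H1047R and by 0.54 ± 0.07 with pBabe. IGF1R, the receptor for insulin-like growth factor 1, fell by 0.45 ± 0.06 with H1047R and by 0.40 ± 0.06 with pBabe. The 95% intervals of their interactions were -0.15 to 0.27 and -0.21 to 0.11.

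IRS1 encodes the other main adaptor of the insulin receptor. IRS1 had 81.5, 76.1 and 81.3 CPM in H1047R insulin cells, 88.2, 90.3 and 88.7 CPM in H1047R vehicle cells, 78.4, 62.6 and 71.6 CPM in pBabe insulin cells and 93.3, 93.1 and 93.2 CPM in pBabe vehicle cells. Its fall passed with pBabe (-0.40 ± 0.06) but not with H1047R (-0.16 ± 0.06), and the interaction was 0.23 (unadjusted p = 0.0135), or 0.15 without pBabe insulin replicate 2. IGFBP4, a secreted inhibitor of insulin-like growth factors, had 307, 275 and 309 CPM in H1047R insulin cells, 337, 356 and 333 CPM in H1047R vehicle cells, 295, 238 and 261 CPM in pBabe insulin cells and 362, 374 and 361 CPM in pBabe vehicle cells, with an interaction of 0.26. In both genes the lowest library was pBabe insulin replicate 2.

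Of the 34 components of the PI3K, AKT and mTOR pathway, 2 rose (5.88%) and 7 fell (20.6%) on average. Their median interaction was 0.03 (0.01 to 0.04 with single libraries left out). SGK1, a kinase related to AKT, had 116, 116 and 123 CPM in H1047R insulin cells, 167, 161 and 175 CPM in H1047R vehicle cells, 112, 114 and 110 CPM in pBabe insulin cells and 153, 163 and 159 CPM in pBabe vehicle cells. The insulin libraries were below the vehicle libraries with either vector. Both insulin effects were -0.50, and the 95% interval of the interaction was -0.14 to 0.15. RICTOR, the defining subunit of mTOR complex 2, had effects of -0.30 ± 0.06 with H1047R and -0.21 ± 0.06 with pBabe, and only that with H1047R passed. AKT1S1, MLST8 and EIF4EBP1, an inhibitor, a subunit and a substrate of mTOR complex 1, had interactions of 0.21, 0.26 and 0.27 at unadjusted p values under 0.05, but none of the 3 was called for insulin, and MLST8 had an interaction of 0.16 without pBabe insulin replicate 2. PIK3CA, counted in the FOXO-linked list and not among these 34, had an interaction of -0.20. Its effects were -0.38 ± 0.05 with H1047R and -0.18 ± 0.05 with pBabe. Because plasmid and endogenous reads are summed, this value is not an insulin effect on the endogenous gene alone.

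Of 76 genes of the extracellular matrix and adhesion, insulin lowered 33 (43.4%, against 4.99% of all genes tested) and raised 4 (5.26%, against 2.56%) on average. The interaction was above 0 in 55 of 76, against 50.5% of all genes tested and 69.9% of the genes called as average falls. At an unadjusted p under 0.05, 12 members were above 0 and none below. These compare with 3.57% and 2.91% of all genes tested, and with 11.5% and 1.37% of the called falls. The median interaction of the list was 0.07, or 0.05 without pBabe vehicle replicate 1. Of the 37 called members 29 had the smaller response with H1047R, against 71.0% of the 1771 called genes. The called members kept a median of 78.9%, the value also found over the 1771 called genes. Markers of stromal cells moved with this list. Of 16 stromal markers 5 fell and 1 rose, with a median effect of -0.06 with H1047R and -0.17 with pBabe. The median interaction of these markers was 0.05 (0.02 to 0.09 with single libraries left out). Their summed level was 2492 to 2607 CPM in H1047R insulin cells, 2955 to 3065 CPM in H1047R vehicle cells, 2335 to 2515 CPM in pBabe insulin cells and 2938 to 3034 CPM in pBabe vehicle cells. None of their defining members VIM, PDGFRB and THY1 was near 0, DES was (0.0389 to 0.645 CPM), and their part in the matrix result was not tested. CEMIP, a hyaluronan-degrading protein, had 130, 125 and 155 CPM in H1047R insulin cells, 370, 350 and 375 CPM in H1047R vehicle cells, 117, 109 and 105 CPM in pBabe insulin cells and 378, 375 and 387 CPM in pBabe vehicle cells. All insulin libraries were far below all vehicle libraries, and the 3 lowest were those of pBabe insulin. CEMIP fell by 1.41 ± 0.06 with H1047R and by 1.79 ± 0.06 with pBabe, and the interaction was 0.38 ± 0.09 (95% interval 0.20 to 0.56, unadjusted p = 0.000218).

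TFPI2, a matrix-bound protease inhibitor, had 255, 264 and 286 CPM in H1047R insulin cells, 469, 449 and 504 CPM in H1047R vehicle cells, 223, 236 and 268 CPM in pBabe insulin cells and 544, 534 and 521 CPM in pBabe vehicle cells. The insulin groups of the vectors overlapped and the pBabe vehicle libraries were the highest. It kept 72.2% of the pBabe fall, with an interaction of 0.32. The collagenase MMP1, at 1.38 to 7.06 CPM over the 12 libraries, fell by 1.32 ± 0.21 with H1047R and by 1.50 ± 0.22 with pBabe, but its interaction was not resolved (95% interval -0.47 to 0.82).

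HHIP, a secreted antagonist of Hedgehog ligands, had the largest average fall of the named genes (-1.77). It had 7.30, 6.35 and 8.59 CPM in H1047R insulin cells, 20.9, 19.4 and 20.5 CPM in H1047R vehicle cells, 4.15, 7.27 and 3.73 CPM in pBabe insulin cells and 24.9, 22.2 and 20.3 CPM in pBabe vehicle cells. The 2 insulin groups overlapped through pBabe insulin replicate 2. HHIP fell by 1.42 ± 0.14 with H1047R and by 2.13 ± 0.15 with pBabe, and the interaction was 0.71 ± 0.21. Without pBabe insulin replicate 2 it was 1.08 and passed (edgeR adjusted p = 0.0327), the only call in that fit. The antisense gene HHIP-AS1, counted by strand, had an interaction of 0.51 with a 95% interval of -0.22 to 1.25.

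Targets of the co-activator YAP and the TEAD factors had close median effects with both vectors. Insulin lowered 17 of 28 on average (60.7%, against 4.99% of all genes tested) and raised none, with a median effect of -0.18 with H1047R and -0.20 with pBabe. The interaction was above 0 in 18 of 28, against 50.5% of all genes tested. Of the 17 called members 13 had the smaller response with H1047R, against 71.0% of the 1771 called genes. At an unadjusted p under 0.05, 3 were smaller and none larger, against 10.7% and 1.36% of the called genes. The called members kept a median of 80.0%, against 78.9%. CCN2, a matricellular growth factor, had 41.5, 40.6 and 40.7 CPM in H1047R insulin cells, 81.7, 80.4 and 83.6 CPM in H1047R vehicle cells, 37.2, 34.1 and 33.8 CPM in pBabe insulin cells and 79.7, 87.6 and 83.2 CPM in pBabe vehicle cells. The vehicle groups overlapped, and the pBabe insulin libraries were the lowest. It fell by 1.00 ± 0.06 with H1047R and by 1.25 ± 0.06 with pBabe, with an interaction of 0.25 (unadjusted p = 0.00542). CCN1, its relative, fell by 0.51 with H1047R and by 0.55 with pBabe. ANKRD1, a cardiac ankyrin repeat protein widely used as a YAP reporter, fell by 1.26 ± 0.14 with H1047R and by 1.20 ± 0.14 with pBabe, although at 3.50 to 10.5 CPM its interaction could lie between -0.47 and 0.34.

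Whether a response was kept was also tested directly, by asking that the H1047R effect be more than 1/2 and less than 2 times the pBabe effect (both 1-sided tests passing). Only 4 genes passed an adjusted p under 0.05, 0.0171% of those tested, and 200 had an unadjusted 1-sided p under 0.05 (0.853%). DESeq2 gave 11. The 4 were CEMIP (adjusted p = 0.00108, 78.9% kept), CCN2 (0.03, 80.0%), GPRC5A (0.03, 89.7%) and CD44 (0.0486, 84.4%). GPRC5A, a retinoic acid-inducible receptor, had 258, 228 and 238 CPM in H1047R insulin cells, 384, 378 and 382 CPM in H1047R vehicle cells, 237, 227 and 239 CPM in pBabe insulin cells and 394, 388 and 388 CPM in pBabe vehicle cells. Its insulin groups overlapped, and all vehicle libraries were far above them. CD44, the hyaluronan receptor, fell by 0.56 ± 0.04 with H1047R and by 0.66 ± 0.04 with pBabe. CEMIP thus had 1 of the smallest interaction p values and also a fall shown to be within 2-fold of that with pBabe. Leaving out any 1 of the pBabe vehicle, H1047R vehicle or H1047R insulin libraries gave 1 or 2 such genes, and leaving out single libraries overall gave 1 to 5.

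**Figure D4:**
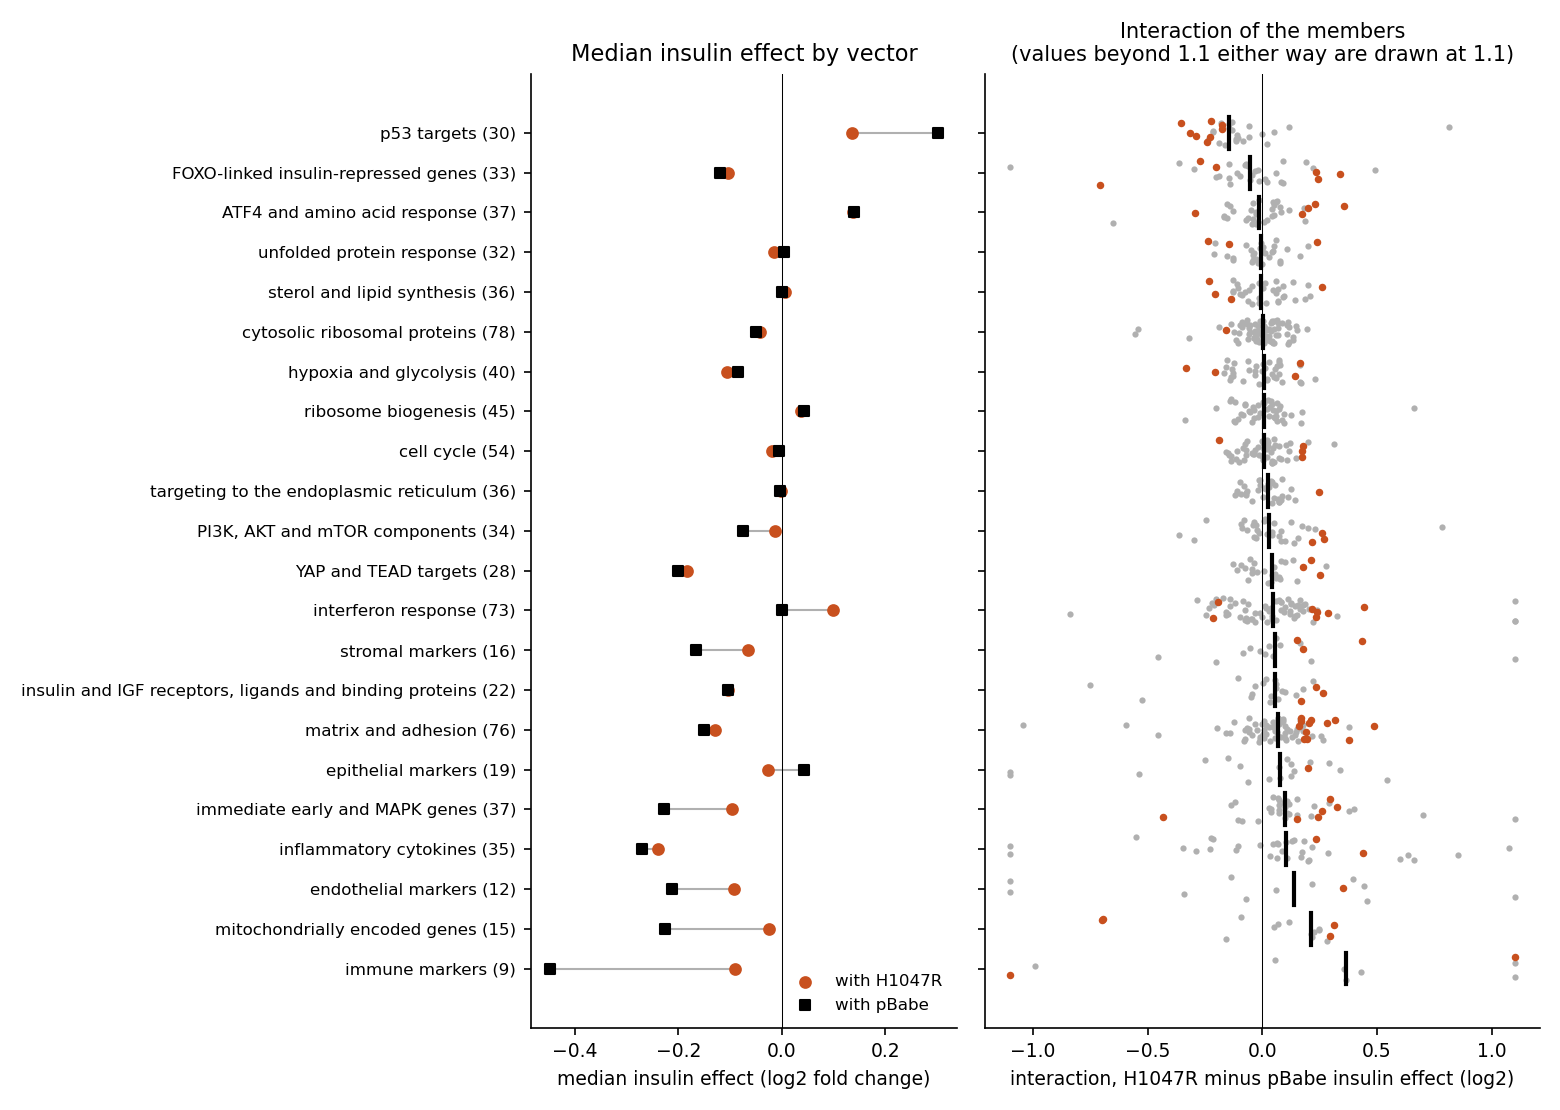
Left, median insulin effect (log2 fold change) of each gene list with H1047R (orange) and with pBabe (black), with the number of genes tested in parentheses. Right, the interaction of each member (log2, orange where the unadjusted p is under 0.05) and the list median (black bar). The p53 targets have the lowest median at -0.15, and among lists outside the marker genes the mitochondrially encoded genes have the highest at 0.21.

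Secreted inflammatory factors fell with insulin in 12 of 35 cases (34.3%, against 4.99% of all genes tested) and rose in 2 (5.71%, against 2.56%). The median kept share among those called was 75.3%, against 78.9% over the 1771 called genes. The median interaction was 0.10, but 0.06 without pBabe insulin replicate 1, 0.19 without pBabe insulin replicate 2 and 0.05 without H1047R insulin replicate 3. TNFRSF11B, which encodes the decoy receptor osteoprotegerin, had 144, 145 and 157 CPM in H1047R insulin cells, 242, 231 and 238 CPM in H1047R vehicle cells, 127, 137 and 130 CPM in pBabe insulin cells and 250, 242 and 247 CPM in pBabe vehicle cells. The insulin libraries of H1047R were all above those of pBabe, and the interaction was 0.23. The neutrophil chemokine gene CXCL6 fell with pBabe (-0.78 ± 0.10), while its value with H1047R was -0.34 ± 0.09 with an edgeR adjusted p of 0.0517, an interaction of 0.44 (unadjusted p = 0.00323). The chemokine gene CXCL8, at 2.34 to 6.56 CPM, fell by 0.92 with H1047R and by 1.21 with pBabe.

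The stress-responsive amino acid programme driven by ATF4 and the hypoxia and glycolysis genes had median kept shares above that of all called genes. Of 37 ATF4 genes 18 rose (48.6%) and 4 fell (10.8%), with a median effect of 0.14 with either vector and a kept share of 89.3%. PSAT1, an enzyme of serine synthesis, had 172, 168 and 161 CPM in H1047R insulin cells, 120, 119 and 121 CPM in H1047R vehicle cells, 158, 157 and 174 CPM in pBabe insulin cells and 111, 114 and 120 CPM in pBabe vehicle cells. The insulin libraries were above the vehicle libraries with either vector. It rose by 0.47 ± 0.05 with H1047R and by 0.50 ± 0.05 with pBabe, and the 95% interval of the interaction was -0.18 to 0.12. Of 40 hypoxia and glycolysis genes 14 fell (35.0%) and none rose, keeping 98.6%. Of the 14, 7 were smaller with H1047R, against 71.0% of the 1771 called genes. MXI1, an antagonist of MYC, fell by 0.51 ± 0.07 with H1047R and by 0.50 ± 0.07 with pBabe. NDRG1, a hypoxia-induced gene, fell by 0.44 with H1047R and by 0.38 with pBabe. The list medians of the interaction, -0.01 and 0.01, changed sign between alternatives.

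**Figure D5:**
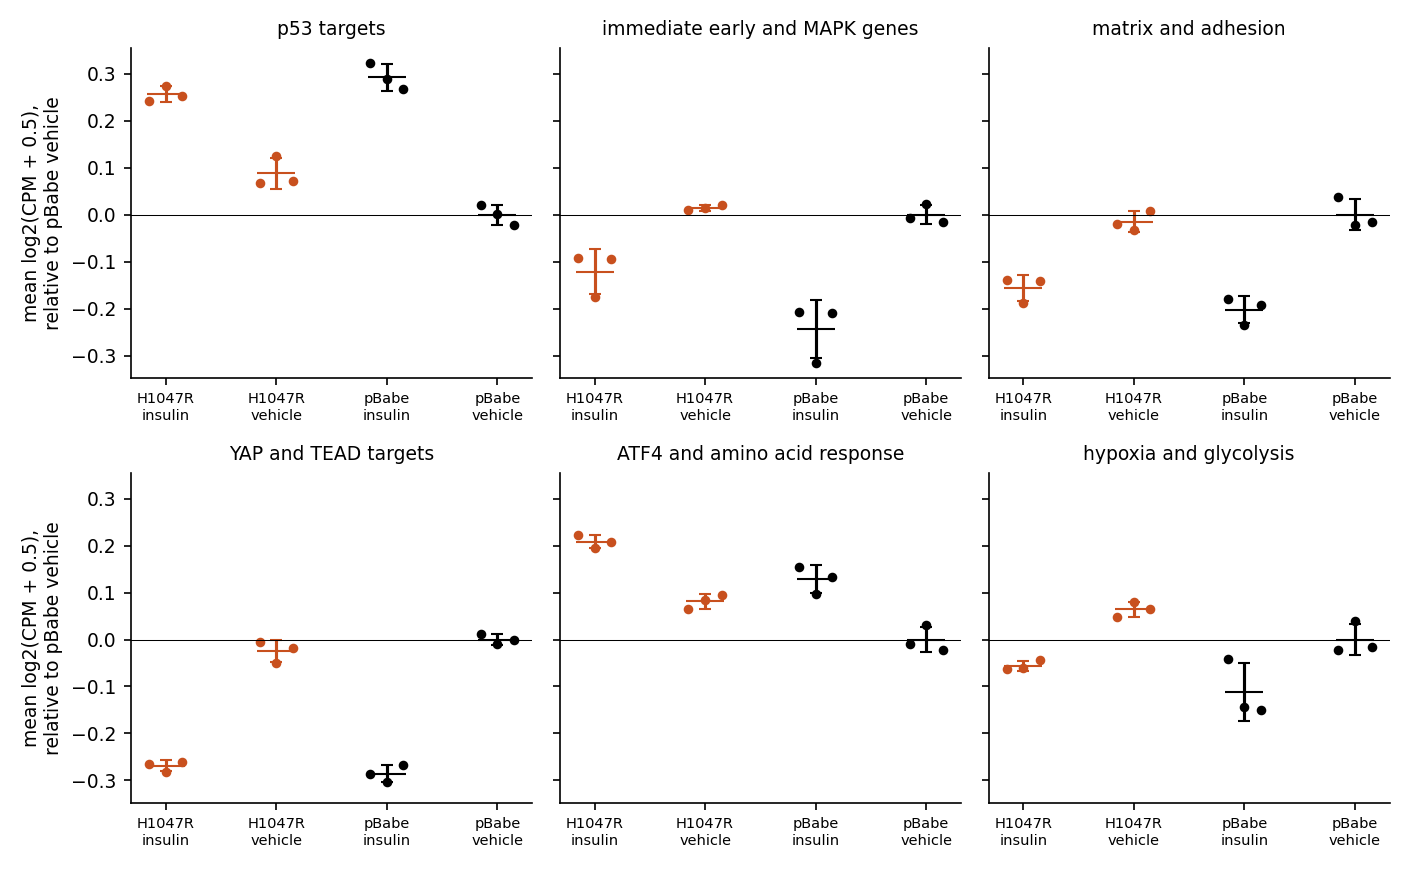
Mean log2(CPM + 0.5) over the members of 6 gene lists, relative to the mean of pBabe vehicle cells (vertical axis), in each library of the 4 groups (points, with the group mean and SD). For the p53 targets the H1047R vehicle cells lie above the pBabe vehicle cells and the insulin cells of both vectors lie close together, and for YAP and TEAD targets the vectors lie close together with either treatment.

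Several other programmes had median interactions between -0.01 and 0.02. Against 7.55% of all genes tested, none of 36 genes for targeting to the endoplasmic reticulum was called for the average in edgeR, and 1 of 32 unfolded protein response genes, 2 of 45 ribosome biogenesis genes, 4 of 78 cytosolic ribosomal proteins, 4 of 36 sterol and lipid synthesis genes and 6 of 54 cell cycle genes were. The sterol and cell cycle lists thus lay above the share of all genes. Interferon-responsive genes lay outside that range, with a median of 0.05. It was -0.07 without pBabe vehicle replicate 2 and 0.11 without pBabe vehicle replicate 3. Their median insulin effect was 0.10 with H1047R and -0.0003 with pBabe. The interaction was above 0 in 44 of 73, against 50.5% of all genes tested. At an unadjusted p under 0.05 it was above 0 in 5 and below 0 in 2, against 3.57% and 2.91%. On average 9 rose (12.3%) and 2 fell (2.74%). Of these 11, 8 had the smaller response with H1047R, against 71.0% of the 1771 called genes. Their median kept share was 61.05%, against 78.9% over the 1771 called genes. H1047R itself differed from pBabe by a median of 0.22 in this list with vehicle and 0.24 with insulin. OASL, an antiviral gene, had 53.5, 43.0 and 46.2 CPM in H1047R insulin cells, 32.1, 47.1 and 42.1 CPM in H1047R vehicle cells, 20.6, 19.4 and 18.9 CPM in pBabe insulin cells and 22.4, 24.9 and 21.3 CPM in pBabe vehicle cells. Every H1047R library was above every pBabe library. Its insulin effect passed with neither vector, and its interaction was 0.44 (unadjusted p = 0.00725).

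Mitochondrially encoded genes, whose share of the RNA is also used as a sign of RNA quality, had the highest median interaction of the lists other than the immune markers. None of the 15 was called for the average insulin effect in edgeR, and the median effect was -0.03 with H1047R and -0.23 with pBabe. The interaction was above 0 in 11 of 15 with a median of 0.21, and 2 members lay on each side of 0 at an unadjusted p under 0.05. This median was 0.05 without pBabe insulin replicate 3, 0.11 without H1047R vehicle replicate 1 and 0.04 without H1047R insulin replicate 1. The summed level of the 15 genes was 34840 to 43420 CPM in H1047R insulin cells, 35870 to 41910 CPM in H1047R vehicle cells, 36750 to 47950 CPM in pBabe insulin cells and 45120 to 49620 CPM in pBabe vehicle cells. The pBabe insulin libraries thus spread the most and overlapped every other group, and the part of this spread in the other results was not tested. Without the filter on low counts, MT-RNR1, MT-ND1, MT-ND2, MT-ND4, MT-ND6, MT-CO2 and MT-ATP6 were among the genes called for the interaction.

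Other genes were named for the smallest interaction p values above 0. CTXN1, a small neuronal membrane protein, had 9.55, 6.63 and 9.35 CPM in H1047R insulin cells, 7.20, 7.69 and 6.81 CPM in H1047R vehicle cells, 7.20, 4.95 and 6.44 CPM in pBabe insulin cells and 9.44, 11.3 and 9.48 CPM in pBabe vehicle cells. Its interaction of 0.94 ± 0.20 had the smallest unadjusted p among the named genes (8.84e-05), and its insulin effects had opposite signs. NPY, the neuropeptide Y gene, had 160, 143 and 161 CPM in H1047R insulin cells, 217, 209 and 208 CPM in H1047R vehicle cells, 162, 164 and 148 CPM in pBabe insulin cells and 256, 268 and 274 CPM in pBabe vehicle cells. With insulin the 2 vectors overlapped, with vehicle the H1047R libraries were all lower, and 59.9% of the pBabe fall was kept.

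SSTR1, a somatostatin receptor, had 46.4, 45.1 and 49.6 CPM in H1047R insulin cells, 60.2, 55.9 and 60.9 CPM in H1047R vehicle cells, 39.3, 39.0 and 39.3 CPM in pBabe insulin cells and 59.4, 67.2 and 61.3 CPM in pBabe vehicle cells. Here the vectors overlapped with vehicle and were apart with insulin, and the interaction was 0.36 ± 0.09. S100A16, a calcium-binding protein, fell by 0.33 ± 0.05 with pBabe and had a value of -0.05 ± 0.05 with H1047R. The interaction was 0.35 for SORBS3, which encodes the adhesion protein vinexin, and 0.69 for PLEKHM1, an adaptor of lysosome fusion.

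On the other side of 0, the genes included long non-coding RNAs. MALAT1, a nuclear non-coding RNA, had 485, 517 and 489 CPM in H1047R insulin cells, 599, 510 and 500 CPM in H1047R vehicle cells, 547, 666 and 629 CPM in pBabe insulin cells and 543, 412 and 397 CPM in pBabe vehicle cells. The libraries of the 2 H1047R groups overlapped, and pBabe vehicle replicate 1 stood above the other libraries of its group. The interaction was -0.56 ± 0.12, and without that library it was -0.71 and passed (edgeR adjusted p = 0.00334). HELLPAR, a long non-coding RNA at 2.30 to 5.12 CPM, had an interaction of -1.17 ± 0.26, and the values were -0.69 for SCYL3, a pseudokinase, and -0.49 for ANKRA2, an ankyrin repeat protein. The insulin effects of all 4 of these genes had opposite signs with the 2 vectors, and none was called for the average.

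The largest average rises were at low levels, where the interaction was poorly resolved. INHBE, a subunit of the hormone activin E, had 2.60, 1.87 and 1.61 CPM in H1047R insulin cells, 0.590, 0.817 and 0.717 CPM in H1047R vehicle cells, 1.11, 1.38 and 1.62 CPM in pBabe insulin cells and 0.737, 0.544 and 0.246 CPM in pBabe vehicle cells. It rose with either vector (1.48 ± 0.33 with H1047R and 1.41 ± 0.36 with pBabe), and the 95% interval of the interaction was -0.99 to 1.13. TNFRSF9, a co-stimulatory receptor, rose by 0.95 ± 0.18 with H1047R and by 1.07 ± 0.19 with pBabe (interval -0.66 to 0.43). COL15A1, a basement membrane collagen, rose by 1.28 ± 0.28 with H1047R and by 0.95 ± 0.26 with pBabe (interval -0.45 to 1.12). The retinoic acid-making enzyme gene ALDH1A1 had effects of 0.96 ± 0.30 with H1047R and 1.32 ± 0.29 with pBabe, of which only that with pBabe passed (interval of the interaction -1.23 to 0.50). Its relative ALDH1A3, at 502 to 745 CPM, was resolved far better. It fell by 0.51 ± 0.04 with H1047R and by 0.48 ± 0.04 with pBabe, and the 95% interval of its interaction was -0.14 to 0.08.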

How the data were processed

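RNA sequencing counts from 12 RSAD2 siRNA libraries were used, with groups from the labels. The authors removed adapters with Trim Galore and cutadapt, used STAR with hg38 and deposited its raw gene counts, of which the reverse-stranded column was used, and tool versions were not given in the sources used here. The methods name an annotation release numbered as for mouse, although the identifiers are human. Of 60617 identifiers, 60357 matched GENCODE 44. The 4 summary entries per library (22.2% to 30.6% of read pairs) were kept apart. Genes averaging 1 count or more over the libraries were tested in edgeR 4.0.16 (R 4.3.3), with 1 term per group, TMM normalisation, the quasi-likelihood F test and Benjamini-Hochberg adjustment, leaving 8 residual degrees of freedom. Per the methods, the 3 libraries of a condition came from independent experiments. Taken over all groups, same-numbered libraries did not deviate together (median r = -0.0187, 2 of 18 pairs above 0.1, lowest -0.284). The insulin libraries of the 2 vectors had r of 0.379, 0.304 and 0.0758 for numbers 1, 2 and 3. Numbers were not treated as pairs in the main fit. The comparison and the 22 gene lists were chosen with earlier results of these data known. Named genes were RSAD2 and PIK3CA, the 8 smallest interaction p values on each side of 0, the 10 largest average rises and falls, the 10 smallest p values for a kept response and up to 5 members per list, and other list members were named after their values were seen. Alternatives were DESeq2 1.42.0, RLE factors, other filters, all 15 libraries, unstranded counts, a threshold of 0.001, a replicate block and each library left out. The fits were also run on simulated counts, with set effects larger than the median size of a called effect here. That run therefore does not show how effects of the size seen here would be recovered.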

Additional observations from a re-analysis of the deposited data

How the results depend on the processing

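The absence of interaction calls held in 19 of 23 alternatives. For 1 of these, the threshold of 0.001 on the main fit, this was fixed in advance, since that fit had no call at 0.05. Without a filter on low counts 91 genes were called, many of them pseudogenes but also mitochondrially encoded genes, CEMIP, MDM2, EGR1, NPY, TFPI2, HHIP and TP53INP1. Leaving out single libraries gave 0 to 1 calls (HHIP without pBabe insulin replicate 2 and MALAT1 without pBabe vehicle replicate 1), and leaving out pBabe vehicle 3 and pBabe insulin 2 together, an alternative chosen after seeing the data like those below that leave out 2 libraries, gave 2 (HHIP and MT-RNR1). At an adjusted p of 0.001 the average insulin effect was called for 579 genes, the effect with H1047R for 177, the effect with pBabe for 304 and a response kept within 2-fold for 0. Leaving out single libraries gave 311 to 780 calls with H1047R, 819 to 1642 with pBabe and 1 to 5 kept responses, and a median signed interaction of -0.107 to -0.0486. Leaving out pBabe vehicle 3 and pBabe insulin 2 gave 892 calls with H1047R, leaving out pBabe vehicle 3 and pBabe insulin 3 gave 732 with pBabe and 2 kept responses, and leaving out pBabe insulin 2 and 3 gave 870 with H1047R and 509 with pBabe. Kept responses numbered 11 in DESeq2 and 12 without a filter. With the replicate number as a block the interaction was called for 0 genes, with 1395 at an unadjusted p under 0.05. The causes were not tested. Of the 133 named genes 97 kept the sign of their interaction in every alternative, as did 9 of 22 list medians. A class defined by the opposite-strand share cannot be given its own interaction, since the lower class holds no H1047R library.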
